A study of Mus musculus with 36 samples.

Results

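Expression of 9 genes of bone morphogenetic protein (BMP) signalling was followed in differentiating brown pre-adipocytes, out of 55536 genes counted. They were the ligands Bmp2, Bmp4 and Bmp7, the type I receptor gene Bmpr1a, the secreted antagonists Grem1 and Fst, and the target genes Id1, Id2 and Id3. The genes were taken from a fixed list of symbols, matched to the counted Ensembl identifiers through the GENCODE M21 annotation, and Grem1 headed the list because it falls most between days 0 and 6. All values of day 6 against day 0, and all changes of Grem1 over days, are therefore a description with no test. Only differences between genotypes or between clones in the change of Grem1 from day to day were tested. Of the 9 genes, 7 passed the filter on low counts, and Bmp2 and Bmp7 did not.

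RNA sequencing covered 36 libraries of brown pre-adipocyte lines, with 3 libraries for each combination of clone, genotype and day. All lines were Rxra-/-, made by Cas9 disruption of the retinoid X receptor alpha gene in a clonal line of wild-type mouse brown pre-adipocytes, and 2 such clones were used, numbered 48 and 66. Each clone was transduced with a pBabe retrovirus carrying either wild-type mouse Rxra (RxraWT) or a form in which the insulin-responsive serine is replaced by alanine (RxraSA), and was selected with hygromycin. The question of the study was whether this serine matters for gene expression while the cells become adipocytes. Cells were grown to confluence in medium with insulin and triiodothyronine (day 0), were given dexamethasone, isobutylmethylxanthine and indomethacin in addition until day 2, and were kept in the differentiation medium until day 6. Each genotype is thus represented by 2 lines, 1 from each monoclonal knockout, that carry an integrated virus, and untransduced wild-type cells were not analysed here. The methods of the study describe no isolation of single cells after transduction. All libraries of clone 48 were in library pool 1 and all of clone 66 in pool 2, so that clone and pool cannot be told apart. The series' own description calls the 3 libraries of a line technical replicates, whereas the methods of the study speak of independent replicates of cell culture experiments. P-values here measure only the spread between these libraries.

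BMP ligands are secreted dimers that bind type I and type II serine-threonine kinase receptors at the cell surface. The activated type I receptor phosphorylates Smad1, Smad5 and Smad9, which enter the nucleus with Smad4 and switch on target genes, among which the Id genes are the best known. Id proteins lack a DNA-binding region and hold basic helix-loop-helix (bHLH) transcription factors in inactive pairs. Gremlin 1, the product of Grem1, and follistatin, the product of Fst, bind ligands outside the cell and keep them from their receptors, gremlin mainly BMP2, BMP4 and BMP7 and follistatin mainly activins and, less tightly, BMPs. In brown fat, BMP7 is known as a ligand that promotes the brown adipocyte fate, and BMP2 and BMP4 are known to commit precursors to the adipocyte lineage.

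Total counts per library ranged from 11351078 to 24349263 (median 18338726). Levels are given as counts per 1e6 (CPM) of the library size scaled by the trimmed mean of M-values. The adipocyte markers fixed for the label check summed to 109 to 223 CPM at day 0, 2820 to 5250 CPM at day 2 and 5430 to 9480 CPM at day 6, with Pparg, the master regulator of adipocyte formation, at a median of 75.5, 392 and 515 CPM. Of the genes on that list that mark brown fat, Ppargc1a was at a median of 13.6, 19.6 and 22.9 CPM at days 0, 2 and 6, but others stayed low, with at most 5 counts of Ucp1, 27 of Cidea and 21 of Prdm16 in any library, and Dlk1, a pre-adipocyte marker, had at most 1 count. Myod1, Myog, Cdh5, Ptprc, Adgre1 and Epcam had medians under 0.1 CPM on every day, and no summed list for endothelial, blood, cartilage and bone, or epithelial cells exceeded 11.5 CPM in any library. Within these lists Cd68, a blood cell marker, had medians of 6.86, 3.80 and 7.91 CPM at days 0, 2 and 6. Sox9, from the cartilage and bone list, had medians of 5.03, 0.807 and 2.79 CPM. No other gene of these lists reached a median of 1 CPM. The summed skeletal muscle list was 14.5 to 30.0 CPM at day 6 against 0.661 to 4.55 CPM at day 0, and Des was its only gene with a median of at least 1 CPM. The pre-adipocyte list summed to 255 to 465 CPM at day 0, 33.7 to 104 CPM at day 2 and 42.0 to 168 CPM at day 6. The part of these shifts in the changes over days was not tested, and in such bulk samples fewer cells of a type and less RNA per cell cannot be told apart. Rxra was counted in every library, at a median of 170 CPM at day 0, 570 CPM at day 2 and 240.2 CPM at day 6, but the disrupted locus and the virus share its exons, so its level checks no label.

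**Figure D1:**
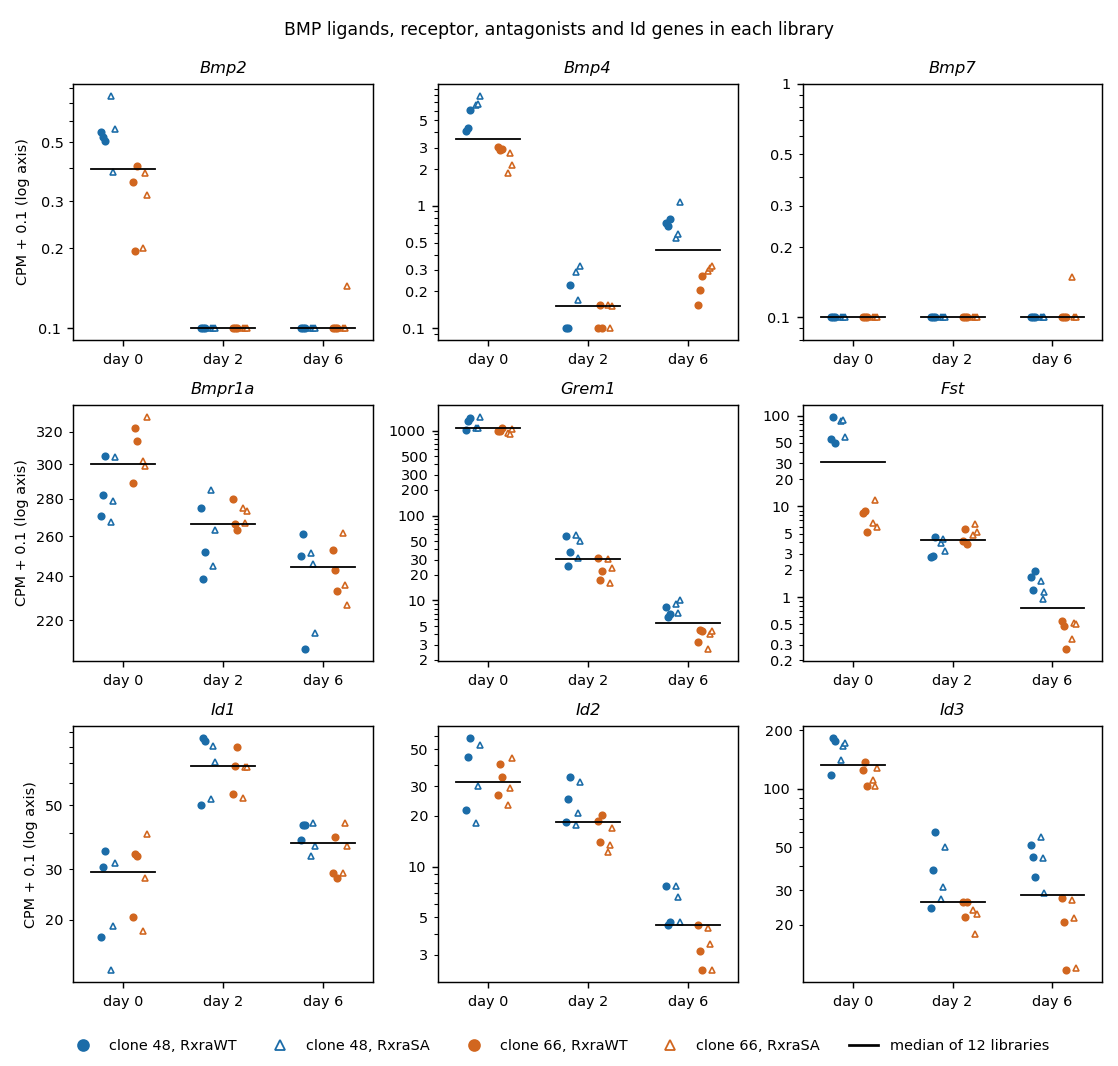
CPM + 0.1 on a log axis for each of the 9 genes at days 0, 2 and 6, with 1 point per library, blue for clone 48, orange for clone 66, filled circles for RxraWT, open triangles for RxraSA and a line at the median of the 12 libraries of a day. Grem1 descends in 2 steps that do not overlap, Id1 is highest at day 2, and Fst at day 0 separates the clones.

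The ligand genes were expressed at low levels throughout, and what there was of them was mostly seen before differentiation. Bmp4 (GRCm38, chromosome 14, 46383520 to 46390669, minus strand) lay between 4.0 and 7.88 CPM (median 6.26) in the 6 clone 48 libraries of day 0 and between 1.75 and 2.90 CPM (median 2.68) in those of clone 66. At day 2 it was at 0 to 0.22 CPM (median 0.097) in clone 48 and 0 to 0.055 CPM (median 0.026) in clone 66. That is 0 to 4 counts a library, and no library of day 2 reached the lowest of day 0. At day 6 it was back at 0.44 to 0.97 CPM (median 0.602) in clone 48 and at 0.056 to 0.22 CPM (median 0.18) in clone 66. From day 0 to day 2 Bmp4 fell by 6.08 ± 0.26 on the log2 scale (SE, n = 12 libraries per day, edgeR adjusted p = 6.53e-21), in 12 of 12 same-numbered pairs of libraries. Because so few counts were left, the ratio of summed counts is the plainer measure, with 947 counts at day 0 and 13 at day 2, a 62.7-fold difference after scaling (95% counting interval 36.5 to 118). Bmp4 then rose from day 2 to day 6 (log2 fold change 2.63 ± 0.36, edgeR adjusted p = 7.89e-08), in 12 of 12 pairs, from 13 to 84 counts, a 6.0-fold difference with a counting interval of 3.33 to 11.7. Bmp4 entered the tests of both steps through its counts at day 0, where it was highest, so that its place in the first test already depended on a high day 0. With days 2 and 6 fitted alone it did not pass the filter and was not tested, whereas with no filter at all the adjusted p of the second step was 1.10e-08. The ranges of days 2 and 6 overlapped across clones but not within either clone, and in clone 66 the gap between them was that between 1 count in 1 library and 1 count in another. Day 6 stayed below day 0 in 12 of 12 pairs, with a ratio of summed counts of 10.4.

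Bmp2 (chromosome 2, 133552159 to 133562885, plus strand) was counted at day 0 in every library, at 2 to 9 counts, or 0.29 to 0.65 CPM (median 0.43) in clone 48 and 0.096 to 0.31 CPM (median 0.24) in clone 66. At day 2 no library had a single count, so that the 74 counts of day 0 are at least 21.2-fold more, set against a limit of 3 counts over the 12 libraries. At day 6, 1 count was found in 12 libraries, a ratio of 68.6 to day 0 with a counting interval of 11.9 to 2740. Bmp7 (chromosome 2, 172868012 to 172940321, minus strand) had 1 count in all 36 libraries together, in 1 RxraSA library of clone 66 at day 6. At this depth expression of Bmp7 could not be told from none, and neither gene was tested.

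Bmpr1a (chromosome 14, 34410734 to 34503341, minus strand), which encodes the type I receptor also called ALK3, was the steadiest of the 9 genes. It lay between 267 and 330 CPM (median 300.3) at day 0, between 239 and 285 CPM (median 266) at day 2 and between 207 and 261 CPM (median 245) at day 6. Neighbouring days overlapped, whereas day 0 and day 6 did not. It fell by 0.16 ± 0.05 on the log2 scale from day 0 to day 2 (edgeR adjusted p = 0.00282) and by 0.14 ± 0.05 from day 2 to day 6 (edgeR adjusted p = 0.0101), each in 10 of 12 pairs. Both calls were lost when either clone was fitted alone, where the adjusted p was 0.116 and 0.0528 for the first step and 0.375 and 0.0756 for the second in clones 48 and 66.

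The antagonist Grem1 (chromosome 2, 113746164 to 113758646, minus strand) was the most abundant of the 9 genes per kilobase of exon at day 0 and the one with the largest change over the time course. At day 0 it stood at 1002 to 1458 CPM (median 1184) in clone 48 and at 911 to 1073 CPM (median 976) in clone 66. At day 2 the ranges were 25.1 to 59.4 CPM (median 43.2) and 16.2 to 31.9 CPM (median 23.3). At day 6 they were 6.35 to 9.95 CPM (median 7.58) and 2.56 to 4.4 CPM (median 4.13). No 2 days overlapped in either clone, and each later library was lower in 12 of 12 pairs at both steps. The log2 fold change was -5.11 from day 0 to day 2, -2.54 from day 2 to day 6 and -7.65 over the whole time course, which is 201-fold. Within clones the last value was -7.25 in clone 48 and -7.97 in clone 66. Even at day 6, Grem1 had 53 to 174 counts in a library, so that its low level is well measured.

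The sequences before the start sites of Grem1 and Bmp4 are shown because they differed most between days 0 and 2 among the 7 genes that passed the filter. They are the 250 bases upstream of the RefSeq start, read 5′ to 3′ on the gene's strand, from the RefSeq promoter table of build GRCm38.p6, which held 5 of the 9 genes (Grem1, Bmp4, Bmpr1a, Id2 and Id3). Capitals mark matches on either strand to 3 motifs: AGGTCA, the half-site bound by nuclear receptors such as RXRα, CANNTG, the E-box bound by the bHLH factors that Id proteins hold back, and GGCGCC, a GC-rich element bound by BMP-activated Smads. No matches overlapped.
Grem1, chr2:113758649-113758898, minus strand: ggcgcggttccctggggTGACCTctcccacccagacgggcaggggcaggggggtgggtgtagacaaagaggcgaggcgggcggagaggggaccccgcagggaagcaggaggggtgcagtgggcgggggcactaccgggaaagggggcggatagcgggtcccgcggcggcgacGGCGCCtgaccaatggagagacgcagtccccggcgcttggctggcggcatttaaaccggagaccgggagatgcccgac
Bmp4, chr14:46390670-46390919, minus strand: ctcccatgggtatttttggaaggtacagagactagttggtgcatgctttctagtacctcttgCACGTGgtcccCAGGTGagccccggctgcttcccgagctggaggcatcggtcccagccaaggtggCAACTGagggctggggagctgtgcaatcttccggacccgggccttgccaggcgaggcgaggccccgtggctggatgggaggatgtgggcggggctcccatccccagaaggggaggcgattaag
The Grem1 window held 1 half-site, written here as its complement TGACCT, and 1 GGCGCC, and the Bmp4 window held 3 E-boxes, of which no 2 had the same letters. Of 32851 windows of the same length, 14.0% held AGGTCA, 66.2% CANNTG and 9.59% GGCGCC. A match of letters is a description and shows no binding.

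Fst (chromosome 13, 114452290 to 114458951, minus strand) had a different course in each clone. At day 0 it was at 50.2 to 97.5 CPM (median 71.9) in clone 48 but at 5.14 to 11.6 CPM (median 7.38) in clone 66. At day 2 the clones overlapped with each other, and clone 66 also with its day 0, at 2.67 to 4.52 CPM (median 3.50) and 3.71 to 6.29 CPM (median 4.92). At day 6 they were apart again, at 0.86 to 1.81 CPM (median 1.25) and 0.17 to 0.45 CPM (median 0.39), where clone 66 had only 3 to 9 counts a library. Over both clones Fst fell by 2.47 ± 0.39 on the log2 scale from day 0 to day 2 (edgeR adjusted p = 8.05e-07) and fell by 2.85 ± 0.43 from day 2 to day 6 (edgeR adjusted p = 7.06e-07), in 12 of 12 pairs each time. In clone 48 Fst fell by 4.32 ± 0.23 and then by 1.48 ± 0.24, and in clone 66 by 0.60 ± 0.21 and then by 3.81 ± 0.28 (n = 6 libraries per day and clone, edgeR adjusted p between 4.92e-16 and 0.0141 for the 4 values). From day 0 to day 6 the log2 fold changes were -5.79 and -4.41.

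**Figure D2:**
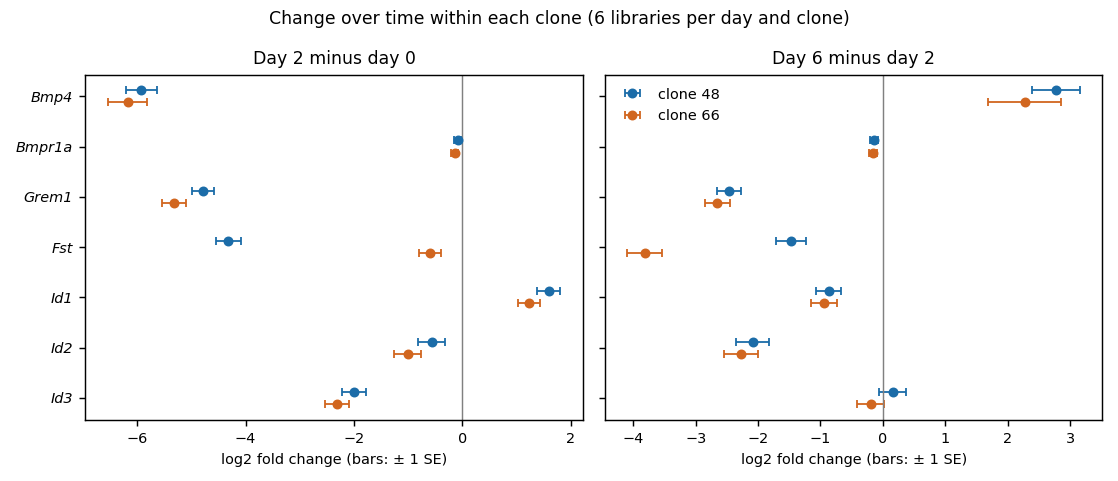
Log2 fold change of the 7 genes that passed the filter from day 0 to day 2 (left) and from day 2 to day 6 (right), in clone 48 (blue) and clone 66 (orange), with bars of ± 1 SE over 6 libraries per day and clone. Fst is the gene whose clones lie apart in both steps, and the Bmp4 values of clone 66 rest on at most 1 count per library at day 2.

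The 3 target genes did not move together. Id1 (chromosome 2, 152736251 to 152737410, plus strand), a direct target of BMP-activated Smads, lay between 13.2 and 39.8 CPM (median 29.1) at day 0, between 49.9 and 85.9 CPM (median 68.3) at day 2 and between 27.9 and 43.3 CPM (median 37.0) at day 6. Day 2 did not overlap with day 0 or day 6, whereas day 0 and day 6 overlapped. It rose from day 0 to day 2 (log2 fold change 1.35 ± 0.15, edgeR adjusted p = 3.39e-10) and fell by 0.89 ± 0.14 from day 2 to day 6 (edgeR adjusted p = 1.92e-06), in 12 of 12 pairs at each step. At day 6 it was above day 0 in 10 of 12 pairs, with a log2 fold change of 0.46, which was 0.27 with scaling by library size alone, 0.71 in clone 48 alone and 0.26 in clone 66 alone.

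Id2 (chromosome 12, 25093799 to 25097140, minus strand) went down at both steps. It was at 18.2 to 58.3 CPM (median 31.9) at day 0, 12.2 to 33.8 CPM (median 18.4) at day 2 and 2.31 to 7.55 CPM (median 4.38) at day 6, where it no longer overlapped with the earlier days. The fall was 0.85 ± 0.18 on the log2 scale to day 2 (edgeR adjusted p = 5.93e-05) and 2.16 ± 0.19 from there to day 6 (edgeR adjusted p = 3.83e-12), in 12 of 12 pairs each. With the libraries of clone 48 fitted alone, the first of these steps did not pass the threshold (adjusted p = 0.0598).

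Id3 (chromosome 4, 136143497 to 136145755, plus strand) went down at the first step and did not pass the test at the second. It was at 103 to 183 CPM (median 133) at day 0, 17.7 to 60 CPM (median 26.1) at day 2 and 11.5 to 56.2 CPM (median 28.2) at day 6. It fell by 2.22 ± 0.16 on the log2 scale to day 2 (edgeR adjusted p = 1.59e-14), with no overlap. From day 2 to day 6 its log2 fold change was 0.00 ± 0.16 (interval -0.32 to 0.32, edgeR adjusted p = 0.993), higher in 7 of 12 pairs, and the values ran from 0.16 ± 0.22 in clone 48 to -0.20 ± 0.22 in clone 66.

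Counted together, 6 of the 6 tested genes other than Grem1 passed an adjusted p of 0.05 between days 0 and 2, 1 of them higher and 5 lower. Bmp4 is among the 5 and passed the filter through day 0, where it was highest. Over all 16723 genes tested, 73.3% passed, 35.8% higher and 37.5% lower, so that a pass as such is common in this comparison. The median log2 fold change was -1.53 over the 6 genes and -0.02 over all genes. Between days 2 and 6, 5 of 6 passed, 1 higher (Bmp4, which passed the filter through day 0) and 4 lower (Id1, Id2, Fst and Bmpr1a), against 62% of all genes, 31.9% higher and 30.1% lower. The medians of this step were -0.52 over the 6 genes and 0.01 over all genes. From day 0 to day 6, which the choice of genes used, 1 of the 6 was higher and 5 lower, where 68.3% of all genes passed, 32.9% higher and 35.4% lower, and nothing is read from it. Scaling by library size alone shifted the median of all genes by -0.26 between days 0 and 2 and the share of passing genes that were higher from 48.9% to 33.6%. All 6 genes kept their direction between days 0 and 2 under that scaling, with Id1 still higher by 1.09.

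Levels of different genes can be compared per kilobase of exon. At day 0 Grem1 was 4.64 to 7.34 times as high per kilobase as Bmpr1a (median 5.45), at day 2 it was below Bmpr1a in 12 of 12 libraries (median ratio 0.173) and at day 6 the median ratio was 0.0332. Among the Id genes the order changed with the day. At day 0 Id3 led, and the ratio of Id1 to Id3 per kilobase was 0.146 to 0.494 (median 0.269). At day 2 Id1 was above Id3 in 12 of 12 libraries, at a median ratio of 3.47, and at day 6 in 11 of 12, at a median of 1.78. Id2 was the lowest of the Id genes in every library on each day, with a median ratio of Id1 to Id2 of 1.63, 7.68 and 18.0 at days 0, 2 and 6. Grem1 stayed above Fst per kilobase in all libraries, by a median of 59.3 times at day 0 and 9.72 times at day 6.

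The RxraSA form made no detectable difference to the 7 tested genes on any day. None passed an adjusted p of 0.05 at day 0, 2 or 6 in edgeR, against 0% of all 16723 genes tested, and the smallest adjusted p was 1. No member reached an unadjusted p of 0.05 in that fit either, where 139, 162 and 125 genes of all those tested did. DESeq2 and the test of edgeR's version 4 also made 0 calls among the members on each day. These fits had no term for same-numbered pairs of libraries. The alternative fit with a block for each pair made 0 calls among the members as well. Grem1 at day 0 was at 974.6 to 1422 CPM (median 1038) in RxraWT and at 911 to 1458 CPM (median 1060) in RxraSA libraries, which overlapped throughout. Its ratio of RxraSA to RxraWT was 0.962 (95% interval 0.73 to 1.27) at day 0, 1.09 (0.821 to 1.44) at day 2 and 1.08 (0.793 to 1.47) at day 6. Bmpr1a was bounded most closely, with intervals from 0.908 to 1.10 at day 0, 0.929 to 1.12 at day 2 and 0.902 to 1.09 at day 6.

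For the Id genes the intervals allowed a ratio between 0.605 and 1.57 over the 3 days. Id2 at day 2 was lower in RxraSA in 6 of 6 same-numbered pairs, at 12.2 to 31.7 CPM (median 17.2) against 14.0 to 33.8 CPM (median 19.4). Its log2 difference was -0.22 with an interval of -0.73 to 0.28, which includes 0 (edgeR adjusted p = 1). This interval comes from the fit without a pair term, so the spread between pairs is part of it. Over the alternatives, a block for each pair among them, the log2 difference of Id2 ran from -0.37 to -0.12, with no call. Id1 at day 0 was lower in 5 of 6 pairs (log2 difference -0.18, interval -0.59 to 0.24), and the ratio of Fst had intervals of 0.593 to 2.14 at day 0, 0.586 to 2.46 at day 2 and 0.313 to 2.18 at day 6. That fit gives both clones the same course over days, which Fst did not have. With 12 groups the Fst intervals in clone 48 were 0.771 to 1.68, 0.717 to 1.75 and 0.436 to 1.25 at days 0, 2 and 6. In clone 66 they were 0.712 to 1.61, 0.789 to 1.85 and 0.508 to 2.25. Bmp4 at day 2 had 10 counts in 6 RxraSA libraries and 3 in 6 RxraWT libraries, a log2 difference of 1.47 with an interval from -0.03 to 2.96, too few counts to show a difference or its absence. For none of the 7 genes was a difference between the genotypes detected in how expression moved from day to day (0 calls for days 0 to 2 and 0 for days 2 to 6, against 0% of all genes, in edgeR, edgeR's version 4 test and DESeq2, and 0 members at an unadjusted p of 0.05). As ratios, the widest intervals for days 0 to 2 and days 2 to 6 were those of Bmp4 (0.805 to 8.31 and 0.142 to 1.27) and Fst (0.409 to 2.78 and 0.206 to 2.31). Differences of several-fold in these 2 genes are thus not excluded. Nor was a difference between the clones in the effect of the genotype detected at an adjusted p of 0.05, by edgeR, edgeR's version 4 test or DESeq2, again against 0% of all genes. At an unadjusted p of 0.05, 1 member passed there, as did 305 of all 17589 genes, and that was Bmp4 at day 0, higher in RxraSA in clone 48 (6.56 to 7.88 CPM against 4.0 to 5.95 CPM) and lower in clone 66 (1.75 to 2.58 CPM against 2.77 to 2.90 CPM), with an edgeR adjusted p of 0.986.

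**Figure D3:**
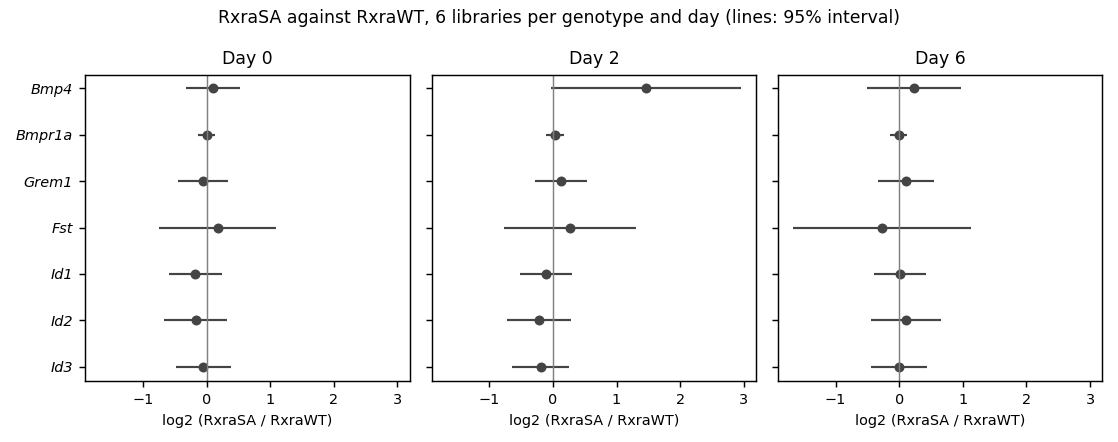
Log2 ratio of RxraSA to RxraWT for the 7 genes that passed the filter at days 0, 2 and 6, with 6 libraries per genotype and day, points for the fitted ratio and lines for its 95% interval. All 21 intervals include 0, and the wide ones belong to Bmp4 at day 2 and to Fst.

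Between the 2 clones, or the 2 library pools, several of the genes differed, and each that passed the test was lower in clone 66. At day 0, 2 of the 7 tested genes were lower in clone 66 and 0 higher, against 22.7% of all 17589 genes that passed in either direction and 11% that were lower. They were Fst (log2 difference -3.25 ± 0.21, which is 9.53-fold lower, edgeR adjusted p = 9.11e-13), and Bmp4 (log2 difference -1.24 ± 0.18, edgeR adjusted p = 2.91e-06). Neither gene overlapped between the clones at day 0.

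At day 2, 2 of 7 were lower, against 28.6% of all genes that passed and 14.9% that were lower. Grem1 was lower by 0.85 ± 0.18 (edgeR adjusted p = 0.000607) and Id3 by 0.75 ± 0.22 (edgeR adjusted p = 0.00967). The Id3 call rested on 2 libraries, since without replicate 3 of RxraWT in clone 48 at day 2 the log2 difference was -0.54 (adjusted p = 0.0614) and without replicate 3 of RxraSA there it was -0.58 (adjusted p = 0.0529). Without the former library Fst, otherwise at 0.47 ± 0.22 (adjusted p = 0.11), was higher in clone 66 by 0.64 (adjusted p = 0.037). Id2 was just outside the threshold (log2 difference -0.64 ± 0.25, adjusted p = 0.0573) and passed with the replicate numbers as a block (-0.60, adjusted p = 0.034). It also passed without any 1 of 5 clone 48 libraries, replicate 1 of either genotype at day 0 or day 2 and replicate 3 of RxraSA at day 0 (adjusted p between 0.0381 and 0.0472).

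At day 6, 5 of 7 were lower, against 25% of all genes that passed and 11.5% that were lower. The 5 were Grem1 (log2 difference -1.04 ± 0.20), Bmp4 (-2.0 ± 0.32), Fst (-1.87 ± 0.31), Id3 (-1.10 ± 0.22) and Id2 (-0.82 ± 0.27), with edgeR adjusted p from 2.15e-05 to 0.027. Grem1, Bmp4, Fst and Id3 did not overlap between the clones at day 6. The Id2 call was lost without any 1 of 5 libraries of that day, replicate 1 of either genotype in clone 48, replicates 2 and 3 of RxraWT in clone 66 and replicate 3 of RxraSA in clone 66, with adjusted p between 0.0511 and 0.0911 and log2 differences between -0.82 and -0.69. Id1 and Bmpr1a did not pass at any day, with log2 differences between clones from -0.19 to 0.25.

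Fst was the 1 of the 7 genes whose change over time differed between the clones, where 6.22% of all genes differed from day 0 to day 2 (3.43% higher and 2.79% lower in clone 66) and 5.81% from day 2 to day 6 (3.17% higher and 2.64% lower). The change to day 2 was 3.72 ± 0.30 higher on the log2 scale in clone 66 than in clone 48 (edgeR adjusted p = 1.04e-09) and the change from there to day 6 was -2.34 ± 0.38 (edgeR adjusted p = 0.000143). As a ratio of fold changes, the first is 13.2 with an interval of 8.61 to 20.2. None of the other 6 genes passed at either step. Grem1 came nearest, with a log2 difference from day 0 to day 2 of -0.53 ± 0.25 and an interval of -1.05 to -0.01 (edgeR adjusted p = 0.264).

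The rest of the BMP pathway was read from a list of 58 further genes, of which 39 passed the filter. From day 0 to day 2, 5 of the 39 rose and 24 fell, where 35.8% of all genes rose and 37.5% fell, at a median log2 fold change of -0.47 against -0.02 over all genes. From day 2 to day 6, 13 rose and 11 fell, where 31.9% of all genes rose and 30.1% fell, at a median of 0.12 against 0.01. Some of the 39 passed the filter only through day 6, where they were highest, so the number that rose is a description. Between RxraSA and RxraWT 0 of 39 passed on any day.

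Of 11 other ligand genes, 2 passed the filter, and 1 of these rose at each step. That gene had 0 to 6 counts a library at day 0, 3 to 10 at day 2 and 54 to 121 at day 6. It passed the filter only through day 6, so its rises are a description with no test. Bmp6, a ligand also made in brown fat, had 1 to 7 counts a library and Bmpr1b, a second type I receptor gene, 0 to 2, and neither passed the filter. Part of the Bmp6 exons lies opposite those of Txndc5, and strand was not used in counting. All 5 tested receptor genes fell from day 0 to day 2, as did 37.5% of all genes, among them the type I receptor gene Acvr1 by 0.73 ± 0.14 on the log2 scale (edgeR adjusted p = 1.72e-05). The type II receptor gene Bmpr2 fell by 0.47 ± 0.14 (adjusted p = 0.00294) and Acvr2a, which also serves activins, by 0.32 ± 0.10 (adjusted p = 0.00536), although 7.8% of its exonic bases lie opposite those of Orc4. None of these 3 passed from day 2 to day 6, and the other 2 tested receptor genes rose. Both had few counts. The first had 0 to 8 counts a library at day 0, 0 to 2 at day 2 and 4 to 28 at day 6. It passed the filter only through day 6, so its rise is a description with no test. Its fall before that rests on 27 counts at day 0 and 4 at day 2 over all libraries of a day, and is likewise a description. The second had 2 to 22, 0 to 12 and 1 to 28 counts on these days.

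Of 10 other antagonists and binding proteins tested, 1 rose and 6 fell to day 2, where 35.8% of all genes rose and 37.5% fell, and 5 rose and 4 fell after it, where 31.9% of all genes rose and 30.1% fell. Nog, which encodes the BMP antagonist noggin, had no count at day 0, 0 to 3 counts a library at day 2 and 6 to 41 at day 6 (0.33 to 2.33 CPM), and it passed the filter only through day 6, so its values are given with no test. Nog is among the 10 genes counted here, so the number that rose after day 2 is a description. Chrd, which encodes chordin, was at 0.26 to 5.09 CPM at day 0, 0.27 to 1.18 CPM at day 2 and 5.95 to 12.1 CPM at day 6. At day 0 it was lower in clone 66 (log2 difference -2.61 ± 0.25, edgeR adjusted p = 1.80e-09), and its change to day 2 differed between the clones (log2 difference 1.59 ± 0.40, edgeR adjusted p = 0.0114). Over both clones it fell by 1.57 ± 0.29 on the log2 scale and then rose (log2 fold change 3.71 ± 0.28, edgeR adjusted p = 7.91e-14). Fstl1, a secreted relative of follistatin, fell at both steps (log2 fold changes -3.07 ± 0.09 and -0.76 ± 0.08), from a median of 1781 CPM at day 0 to 206 and 132 CPM. Twsg1, which can help or hinder BMP binding, had a log2 fold change of 0.08 ± 0.07 at the first step (adjusted p = 0.294) and fell by 0.34 ± 0.07 at the second. Bambi, a decoy receptor without a kinase, passed at neither step but was higher in clone 66 at day 0 by a log2 difference of 2.95 ± 0.19.

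Inside the cell, Smad1 fell by 0.88 ± 0.11 on the log2 scale to day 2, Smad9 by 2.65 ± 0.20 and Smad5 by 0.19 ± 0.05. The shared partner Smad4 did not pass at either step (log2 fold changes 0.08 ± 0.10 and 0.02 ± 0.10). Smad6 and Smad7, inhibitory Smads that are themselves targets of the pathway, fell by 2.20 ± 0.10 and 1.03 ± 0.18 to day 2. From there Smad6 rose (log2 fold change 0.69 ± 0.10) and Smad7 fell by 0.46 ± 0.19. Between the same days 0 and 2, Id1 went up while Id2 and Id3 went down, and a link between these changes was not tested.

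Id4, the fourth Id gene, had a log2 fold change of 0.22 ± 0.20 to day 2 (adjusted p = 0.325) and fell by 1.53 ± 0.23 after it. The bHLH genes whose products Id proteins bind fell to day 2, Tcf3 by 0.47 ± 0.08, Tcf4 by 1.35 ± 0.18 and Tcf12 by 0.60 ± 0.06, and none of them passed from day 2 to day 6. Inhba, which encodes a subunit of the activins that follistatin binds, was at 6.42 to 19.5 CPM at day 0, 2.28 to 87.7 CPM at day 2 and 0.40 to 2.14 CPM at day 6. The other activin gene of the list was highest at day 6, at 0.15 to 2.09 CPM at day 0, 0 to 0.22 CPM at day 2 and 2.88 to 11.6 CPM at day 6, given here as values only. The day 2 values of Inhba differed between clones, higher in clone 66 by a log2 difference of 4.03 ± 0.31 (edgeR adjusted p = 1.73e-11), and Inhba fell by 4.63 ± 0.48 from day 2 to day 6 over both clones.

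**Figure D4:**
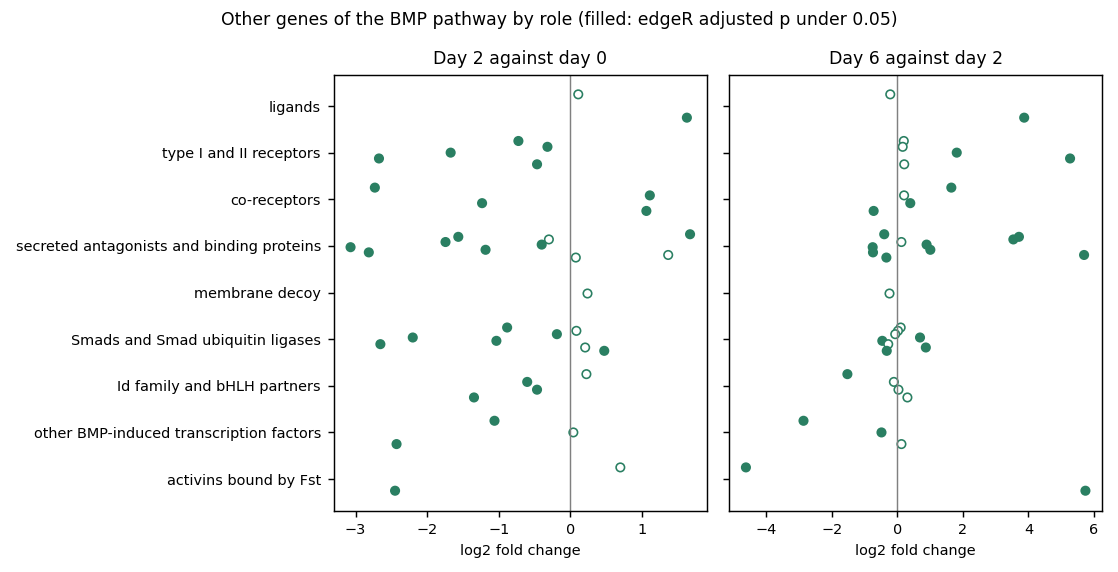
Log2 fold change of the 39 further BMP pathway genes that passed the filter, grouped by role, from day 0 to day 2 (left) and from day 2 to day 6 (right), with filled points for an adjusted p under 0.05. All 5 receptor genes lie below 0 on the left, while the antagonists and binding proteins lie on both sides of 0 in both panels and Nog, with no count at day 0, is drawn at its fitted value.

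Similarity of course was described by Pearson's correlation of log2 CPM over the 36 libraries, against the other genes whose mean log2 CPM reached 3 (9726 for Bmp4 and 9725 for each of the others). The libraries share their days, clones and replicate numbers, so these values rank genes and test nothing. Grem1 was most like Vcam1, a cell adhesion molecule (r = 0.987), Cadm1 (r = 0.986) and Nrg1 (r = 0.985). Bmp4 was most like Ccn5 (r = 0.97), Thbd and Dzip1, and Fst most like Sema3c (r = 0.956), Maoa and Rnd3. Bmpr1a was most like Usp47 (r = 0.912), Agfg1 and Slc30a7. The Id genes had 3 separate sets of neighbours, Mrpl37 (r = 0.96), Ddx54 and Parl for Id1, Usp11 (r = 0.955), Chst2 and Stard3nl for Id2 and Anxa1 (r = 0.96), Tes and Arpin for Id3. Between the members, Grem1 followed Id3 (r = 0.878), Fst (r = 0.871) and Id2 (r = 0.85) most closely, and Id1 ran against Bmp4 (r = -0.75) and Id3 (r = -0.535) with an r of 0.0249 to Id2.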

How the data were processed

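Counts per gene of 36 libraries were deposited by the authors without normalization. Per the labels and the study's methods, reads from a stranded total RNA kit were aligned with STAR 2.7.0d to mouse build mm10 and counted on GENCODE M21 genes with featureCounts 1.6.2, without using the strand. Reads of a gene and of a gene opposite to it therefore cannot be told apart, which touches 4.0% of the exonic bases of Bmp4 (Gm15217), 4.6% of Bmpr1a (Gm17110) and 2.5% of Fst (Gm47040).

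The counts were tested with edgeR 4.0.16 in R 4.3.3 (quasi-likelihood test, filterByExpr, TMM scaling). Days and genotypes were compared with 6 groups of genotype and day and clone as a covariate, and clones with 12 groups of clone, genotype and day. All p-values were adjusted over all genes tested by Benjamini-Hochberg, and the threshold was 0.05. The fits were tested on simulated data. As alternatives, scaling was by RLE factors or total counts only, low genes were all kept or had to reach 1 CPM in 6 libraries, and fits used edgeR's version 4 test, DESeq2 1.42.0, a replicate block, no clone term, 12 groups, each clone alone, the compared days alone and each of the 36 libraries left out.

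The members and lists were chosen with earlier results of these data known. The text names the 9 members, 22 pathway genes picked by symbol whatever their values (less 1 that is not reported here), and the 3 genes most like each tested member. Other genes serve as checks of labels. Same-numbered RxraWT and RxraSA libraries of a clone and day deviated together (r = 0.178 to 0.922 in 18 pairs, over 9726 genes), so directions between genotypes were counted within these pairs. The main fit had no pair term, and a block for each pair was an alternative for the genotype comparisons. Pairs of libraries from different days were matched by clone, genotype and replicate number. Whether such libraries deviate together was not checked, so counts of these pairs describe direction only. No 2 replicates were duplicates. Intervals of summed counts and limits from 0 counts cover counting error only.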

Additional observations from a re-analysis of the deposited data

Results flagged for a closer look

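Fst changed differently in the 2 clones, by a test of the difference itself. From day 0 to day 2 its log2 fold change was 3.72 higher in clone 66 than in clone 48 (edgeR adjusted p = 1.04e-09), and from day 2 to day 6 the difference was -2.34 (edgeR adjusted p = 0.000143). All libraries of a clone were in 1 library pool, so that clone and pool cannot be told apart.

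The Grem1 level of 1458 CPM in replicate 3 of RxraSA in clone 48 at day 0 stood apart from the other 5 RxraSA libraries of that day, by the gap to its nearest neighbour against the range of the group. Chance alone marks about 1 in 20 such groups if their libraries are alike, and 43 groups of 6 libraries were examined. Each group holds both clones, however, so this rate need not apply. The same-numbered RxraWT library of clone 48 was at 1422 CPM, and Grem1 at day 0 was highest in replicate 3 in 4 of 4 combinations of clone and genotype.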

How the results depend on the processing

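No comparison's count of called members changed by more than 1.5 times under any alternative except that between clones at day 2, which was 2 and ran from 1 to 3 with 1 library left out. No called value changed direction. Bmpr1a lost its call between days 0 and 2 with no filter (adjusted p = 0.203) and with each clone alone, and between days 2 and 6 under these settings and with library size alone (adjusted p = 0.280). The cause was not tested. Between the clones, Id3 at day 0 passed when that day was fitted alone (adjusted p = 0.0264). Id2 at day 2 passed with library size alone, with no filter and with the compared day alone. With no filter Bmp2 passed between days 0 and 2. Bmp4 was not tested between days 2 and 6 with those days alone, since it did not pass the filter there. Scaling, clone and filter also moved values of Grem1 and of day 6 against day 0, up or down, with no change of sign.

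With the replicate number as a block, Id2 between the clones at day 2 passed (log2 difference -0.60, adjusted p = 0.0340), and no other call of a member changed.

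Bmp2, Bmp7 and Bmp4 at day 2 were limited by depth, with at most 9, 1 and 4 counts in a library.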

Other observations

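Within a day, libraries with the same replicate number often held the same rank in all 4 combinations of clone and genotype. At day 0, Grem1 was highest in replicate 3 in 4 of 4, Fst was highest in replicate 2 and lowest in replicate 3 in 4 of 4, and Id1 was lowest in replicate 1 in 4 of 4. At day 2, Grem1 was highest in replicate 1 and lowest in replicate 2 in 4 of 4, and Id1 was again lowest in replicate 1 in 4 of 4. At day 6, Bmp4 was highest and Bmpr1a lowest in replicate 3 in 4 of 4.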
